A study of Sus scrofa with 30 samples.

Results

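Matrix proteases and their inhibitors were followed through the sow mammary gland by 9 genes: the metalloproteinases MMP2, MMP3, MMP9 and MMP14, the tissue inhibitors of metalloproteinases TIMP1, TIMP2 and TIMP3, and the plasminogen activators PLAU and PLAT. The genes were chosen by name, and each was taken with every transcript that the Sscrofa11.1 RefSeq annotation gives it. Of the 9 genes, 8 had a row in the deposited table, with 1 transcript each, out of 61773 transcripts that belong to 26012 genes and assembled loci. Assembled transcripts were kept as loci of their own and were not assigned to reference genes. Any assembled transcripts of the 8 genes are thus missing from their levels, ranks and ratios. MMP3, which encodes stromelysin-1, had no row and is not analysed further.

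The study sequenced RNA from frozen mammary parenchyma of crossbred Danish Landrace × Yorkshire sows that had farrowed before, each sow being sampled at slaughter at a single stage. Mid-gestation (MG) was sampled on gestation day 70 and late gestation (LG) on gestation day 110. Early lactation (EL) was sampled 2 days and peak lactation (PL) 10 days after farrowing, and W2 stands for 2 days after weaning. Tissue came from the same gland position in every sow. The table has 6 samples per stage, but 3 of them are near-copies of the mean of the other 3. Thus 15 samples were counted, 3 per stage, which were MG samples 1, 3 and 6, LG samples 1, 3 and 4, EL samples 3, 4 and 6, and samples 2, 3 and 6 of both PL and W2. The sample titles and the stage names in the records disagree for MG and EL, which are exchanged, and the titles were followed here. If the stage names were right instead, every MG and EL value below would change places. By the titles, milk protein transcripts took 1.19% to 2.95% of the units in MG, 3.40% to 5.94% in LG and 6.40% to 12.1% in EL.

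The matrix around mammary ducts and alveoli is made of a basement membrane of type IV collagen, laminin and nidogen, and of fibrillar collagens in the stroma. Metalloproteinases are secreted or membrane-bound zinc enzymes that cut these proteins, and TIMPs bind their active sites. The plasminogen activators PLAU (urokinase) and PLAT (tissue type) cut plasminogen to plasmin, which degrades fibrin and can activate some metalloproteinase precursors. In rodents these enzymes are known for branching of the ducts and for the collapse of alveoli after weaning.

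The values are called units here, since they are labelled FPKM but add up to between 997480 and 998888 in the counted samples, as TPM values do. Milk protein transcripts took 9.14% to 28.5% of the units in PL and 0.579% to 0.816% in W2. Together with PAEP, SAA3 and mitochondrial genes they took 37.5% to 51.3% in PL and 20.4% to 23.9% in W2. The part of these transcripts in the changes of other genes was not tested. Among 3521 genes with at least 10 units in every sample, the median log2 fold change was 0.73 in W2 vs PL and -0.64 in PL vs MG. Changes are therefore given on the deposited scale and also after median ratio scaling, which divides each sample by its median ratio over these 3521 genes. Samples are said to overlap or not on the deposited scale unless the scaling is named. PL sample 2 stood apart, with the highest share of milk protein (28.5%) and the fewest reference genes above 0 (13319, against 13964 to 14517 in the others). It was the lowest of the 3 PL samples in 7 of the 8 genes and the lowest of all 15 in 4.

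The marker lists matched a mammary gland of mixed cell types, with milk protein genes, luminal keratins, myoepithelial genes and fibroblast collagens present at every stage. Of the adipocyte markers ADIPOQ and PLIN1 had no row in the table, and of the neutrophil markers CXCR2 and MPO had none. In such bulk tissue, fewer cells of a type and less RNA per cell cannot be told apart.

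The 8 genes spanned a wide range of levels. TIMP3 was the most abundant, with a mean of 91.7 units over the 15 samples, which placed it 716th among the 14951 reference genes. MMP2 (53.9 units) and TIMP2 (53.2 units) were close to each other, at places 1291 and 1306. TIMP1 averaged 15.9 units, MMP9 9.26, PLAU 7.81, PLAT 7.25 and MMP14 2.67, the last at place 10016. The highest stage mean fell in W2 for 5 genes, in MG for 2 and in PL for 1, and the lowest fell in PL for 4, in EL for 3 and in LG for 1. No pair of stages that were neighbours in a gene's order of means differed by the test.

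**Figure D1:**
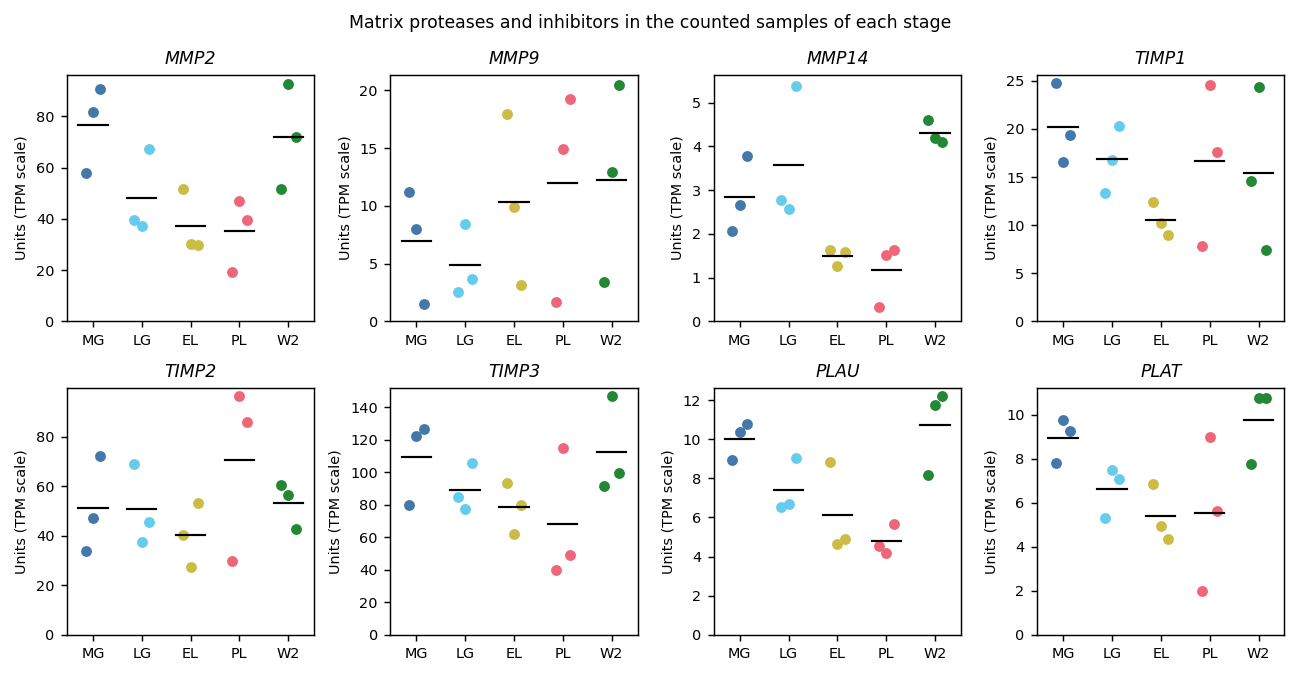
Level of each gene (y axis, units on the TPM scale, from 0) in the 3 counted samples (points) of each of the 5 stages (x axis), with the stage mean as a line. MMP14 lies at 4.10 to 4.60 units in W2 and at 0.337 to 1.64 units in PL, while the points of MMP9 are spread over most of its range in MG, EL, PL and W2.

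In the F test over the 5 stages, MMP14 (limma, adjusted p = 0.0314) and PLAU (adjusted p = 0.0364) were called, 2 of 8, against 18.3% of all genes and loci. MMP2 had an adjusted p of 0.0845 in the same test, and the other 5 genes were at 0.255 or above. With 1 sample left out in turn the number called was between 0 and 2, and it was 0 without MG sample 3, EL sample 4, EL sample 6, W2 sample 3 or W2 sample 6. The share of all genes and loci called with samples left out is not given here. Over the 10 comparisons of stages, 6 of 80 gene and comparison pairs were called at an adjusted p below 0.05. The study also asked for a log2 fold change of 2 or more in size, which none of the 6 reached, against 5.22% of all genes and loci in W2 vs PL, 3.96% in PL vs MG and 2.70% in PL vs LG. When single transcripts were tested by limma in W2 vs PL, MMP14 (adjusted p = 0.0324) and PLAU (adjusted p = 0.0484) were called, against 7.13% of all transcripts. Each of the 8 genes has 1 transcript, so this test used the same values again and is no further support. The gene test of these values called 37.5% of the 8, against 32.8% of all genes and loci.

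MMP2 (gelatinase A, transcript NM_214192.2, chromosome 6, 30059247 to 30087031) degrades type IV collagen and gelatin and is made largely by stromal cells. In gestation it stood at 57.7, 81.8 and 90.7 units in MG samples 1, 3 and 6 and at 39.6, 37.3 and 67.3 units in LG samples 1, 3 and 4. In lactation it stood at 51.7, 30.2 and 29.9 units in EL samples 3, 4 and 6 and at 19.1, 47.1 and 39.5 units in PL samples 2, 3 and 6. In W2 samples 2, 3 and 6 it reached 51.7, 92.6 and 71.8 units. All 3 PL samples lay below all MG and all W2 samples, whereas the EL and W2 samples met at 51.7 units. MMP2 was 72.0 ± 20.5 units (SD, n = 3) in W2 and 35.2 ± 14.5 units in PL, and it rose in W2 vs PL by a log2 fold change of 1.08 (SE 0.37, 2.11-fold, limma, adjusted p = 0.0405). It fell in PL vs MG, from 76.8 ± 17.1 units, with a log2 fold change of -1.18 (SE 0.37, adjusted p = 0.0340). After median ratio scaling these differences were 0.34 (adjusted p = 0.455) and -0.53 (adjusted p = 0.258), and neither was called. The fall in PL vs MG was not called without MG sample 3, MG sample 6 or PL sample 2 either, with adjusted p between 0.103 and 0.124. Without PL sample 2 the rise on the deposited scale was 0.69 (adjusted p = 0.160) and was not called. The call was also lost without MG sample 3, LG sample 1, W2 sample 3 or W2 sample 6, with adjusted p between 0.0508 and 0.138.

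MMP14 (membrane type 1 metalloproteinase, chromosome 7, 76174502 to 76185931) sits in the cell membrane, cuts fibrillar collagen and activates the MMP2 precursor with the help of TIMP2. Of its 2 RefSeq transcripts XM_021098303.1 is in the table. MMP14 stood at 2.06, 2.66 and 3.78 units in the MG samples, 2.77, 2.57 and 5.39 in LG, and 1.64, 1.26 and 1.60 in EL. It stood at 0.337, 1.52 and 1.64 units in PL samples 2, 3 and 6 and at 4.60, 4.20 and 4.10 units in W2 samples 2, 3 and 6. As deposited, every W2 sample was above every MG, EL and PL sample, and every PL sample was below every MG and LG sample. After median ratio scaling W2 (from 3.20) overlapped with MG (up to 3.29), and PL (up to 1.95) overlapped with MG (from 1.85). MMP14 was 4.30 ± 0.26 units in W2 and 1.17 ± 0.72 units in PL (SD, n = 3), and it rose in W2 vs PL by a log2 fold change of 1.64 (SE 0.38, 3.12-fold, limma, adjusted p = 0.0063). After median ratio scaling it rose by 1.12 (SE 0.33, adjusted p = 0.0452), and it was the only 1 of the 8 genes called on both scales in this comparison. On the deposited scale the call was kept with each of the 15 samples left out in turn, with a log2 fold change between 1.21 and 1.88. With median ratio scaling and PL sample 2 left out together, a setting added after the values were seen, the log2 fold change was 0.74 (adjusted p = 0.110). MMP14 also fell in PL vs LG (-1.34, SE 0.38, adjusted p = 0.0326) as deposited, a call that was lost without PL sample 2, LG sample 1 or LG sample 4 and after median ratio scaling. In PL vs MG the difference was -1.08 (adjusted p = 0.0515) and in W2 vs EL it was 1.27 (adjusted p = 0.0960).

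MMP9 (gelatinase B, transcript NM_001038004.1, chromosome 17, 48179690 to 48186782) is a gelatinase carried in neutrophil granules and also made by macrophages and epithelium. It stood at 11.2, 8.03 and 1.55 units in MG, 2.52, 8.45 and 3.63 in LG, and 17.9, 9.88 and 3.18 in EL. It stood at 1.70, 14.9 and 19.2 units in PL samples 2, 3 and 6 and at 3.38, 12.9 and 20.4 units in W2 samples 2, 3 and 6. The LG samples were all at 8.45 units or below, the other stages held both high and low samples, and in no comparison did its stages lie apart. In W2 vs PL the log2 fold change was 0.23 (SE 0.96, 95% interval -1.85 to 2.32, limma, adjusted p = 0.887), and it turned to -0.44 after median ratio scaling. Its direction also turned without PL sample 2 (-0.76) or W2 sample 6 (-0.28).

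Within PL, the neutrophil and macrophage marker sums rose from sample 2 to 3 to 6, as MMP9 did. This order was not particular to them, since MMP14 (0.337, 1.52 and 1.64 units) and the myoepithelial sum (773.2, 1685 and 1952 units) shared it. The sum of the 4 neutrophil markers in the table was 5.65 units in PL sample 2, 12.4 in PL sample 3 and 27.4 in PL sample 6, against at most 2.58 in any other sample. The sum of the 5 macrophage markers was 32.8, 267.2 and 314.5 units in the same samples, against 35.2 to 77.4 elsewhere. In W2, where MMP9 ranged from 3.38 to 20.4 units, the neutrophil sum was 2.17 to 2.32 units, and S100A8 was listed at 0 in LG, EL and W2. The part of neutrophils and macrophages in the MMP9 values of PL was not tested.

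Among the inhibitors, TIMP1 (transcript NM_213857.1, chromosome X, 42103251 to 42106289) is an inducible inhibitor that binds the MMP9 precursor. It stood at 24.8, 16.5 and 19.4 units in MG, 13.4, 16.8 and 20.3 in LG, and 12.4, 10.2 and 8.93 in EL. It stood at 7.87, 24.6 and 17.6 units in PL samples 2, 3 and 6 and at 14.6, 24.4 and 7.43 units in W2. The EL samples lay below all MG and all LG samples, while PL and W2 overlapped with every stage. None of its comparisons was called: EL vs MG gave -0.90 (SE 0.43, limma, adjusted p = 0.325) and W2 vs PL gave -0.12 (SE 0.43, adjusted p = 0.870). In PL vs MG its direction depended on the scale, at -0.39 as deposited and 0.25 after median ratio scaling, neither of which was called.

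TIMP2 (transcript NM_001145985.1, chromosome 12, 3254794 to 3300835), of whose 4 RefSeq transcripts 1 is in the table, inhibits MMP2 and MMP14 and also takes part in the activation of the MMP2 precursor. It stood at 33.7, 47.2 and 72.2 units in MG, 69.0, 37.6 and 45.7 in LG, and 40.4, 27.4 and 53.1 in EL. It stood at 30.0, 96.2 and 86.0 units in PL samples 2, 3 and 6 and at 60.4, 56.3 and 42.6 units in W2. PL samples 3 and 6 were the highest of all 15, while PL sample 2 was the second lowest, and TIMP2 was the only gene of the 8 with its highest stage mean in PL (70.7 ± 35.7 units). No comparison was called on the deposited scale, where W2 vs PL gave -0.26 (SE 0.43, limma, adjusted p = 0.681). After median ratio scaling the levels were 52.9 to 114.5 in PL and 33.2 to 51.6 in W2 and did not overlap, with a log2 fold change of -0.99 (SE 0.36, adjusted p = 0.0926). With PL sample 2 also left out, it fell by 1.35 on the log2 scale in W2 vs PL (adjusted p = 0.0269) and was higher in PL vs MG by 1.36 (adjusted p = 0.0267). In this setting TIMP2 was the 1 gene of the 8 that was called in both comparisons, and the share of all genes and loci called in it is not given here.

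TIMP3 (transcript XM_003126073.6, chromosome 5, 12185816 to 12242599) is the inhibitor that stays bound to the matrix and that also acts on ADAM proteases. It stood at 80.0, 122.3 and 126.5 units in MG, 84.7, 77.4 and 105.5 in LG, and 93.7, 62.2 and 80.2 in EL. It stood at 40.1, 115.1 and 49.1 units in PL samples 2, 3 and 6 and at 91.7, 146.8 and 99.8 units in W2. PL samples 2 and 6 were the lowest of all 15, but PL sample 3 was above 2 of the W2 samples, and so PL overlapped with W2. The log2 fold change was 0.85 in W2 vs PL (SE 0.35, limma, adjusted p = 0.0786) and -0.81 in PL vs MG (SE 0.35, adjusted p = 0.107). After median ratio scaling they were 0.11 (adjusted p = 0.856) and -0.15 (adjusted p = 0.796). Without PL sample 3 TIMP3 was called on the deposited scale in both comparisons, with log2 fold changes of 1.30 (adjusted p = 0.0046) and -1.27 (adjusted p = 0.0069).

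PLAU (urokinase, transcript NM_213945.1, chromosome 14, 76629313 to 76635173) activates plasminogen at the cell surface, bound to its receptor PLAUR. It stood at 8.94, 10.4 and 10.8 units in MG, 6.55, 6.71 and 9.02 in LG, and 8.83, 4.62 and 4.89 in EL. It stood at 4.55, 4.17 and 5.67 units in PL samples 2, 3 and 6 and at 8.16, 11.7 and 12.2 units in W2. All PL samples lay below all MG, LG and W2 samples, and PLAU was the only 1 of the 8 genes in which PL sample 2 was not the lowest of its stage. PLAU rose in W2 vs PL from 4.80 ± 0.78 to 10.7 ± 2.22 units (SD, n = 3), with a log2 fold change of 1.07 (SE 0.26, 2.10-fold, limma, adjusted p = 0.0086). It fell in PL vs MG, from 10.0 ± 0.96 units, by 1.00 on the log2 scale (SE 0.26, adjusted p = 0.0162). After median ratio scaling the differences were 0.38 (adjusted p = 0.307) and -0.38 (adjusted p = 0.320). With each of the 15 samples left out in turn, the rise on the deposited scale was between 0.97 and 1.25 and stayed called. The fall in PL vs MG was not called without MG sample 3 (adjusted p = 0.0545) or MG sample 6 (adjusted p = 0.0532).

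PLAT (tissue plasminogen activator, transcript NM_214054.1, chromosome 17, 11195599 to 11223821) activates plasminogen mainly on fibrin. It stood at 7.79, 9.76 and 9.28 units in MG, 5.31, 7.49 and 7.07 in LG, and 6.86, 4.96 and 4.36 in EL. It stood at 1.97, 8.96 and 5.60 units in PL samples 2, 3 and 6 and at 7.75, 10.8 and 10.7 units in W2. The EL samples lay below all MG and all W2 samples, and PL sample 3 lay within the W2 range. The log2 fold change was 0.96 in W2 vs PL (SE 0.39, limma, adjusted p = 0.0771) and 0.28 after median ratio scaling (adjusted p = 0.589). Without PL sample 3 it was called as deposited, at 1.39 (adjusted p = 0.0120).

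In W2 vs PL, the comparison across weaning, 3 of the 8 genes were thus called on the deposited scale, MMP2, MMP14 and PLAU, all of them higher in W2. Of all genes and loci 32.8% were called in this comparison and 30.4% were called higher, so that the share among the 8 (37.5%) was close to this background. The background includes genes and loci of every level, and the share among those with a mean of at least 1 unit is not given here. The same 3 genes had W2 and PL samples that did not overlap, against 44.0% of all genes and loci. After median ratio scaling MMP2 (PL up to 56.1, W2 from 44.2) and PLAU (PL up to 8.04, W2 from 6.97) overlapped. The median log2 fold change of the 8 was 0.90, beside 0.76 for all genes and loci with a mean of at least 1 unit. On the deposited scale 6 had values above PL and TIMP1 and TIMP2 had values below it, and relative to the shift of 0.73 MMP14 was the farthest above and TIMP2 the farthest below. With median ratio scaling, where 13.1% of all genes and loci were called, the count among the 8 was 1.

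**Figure D2:**
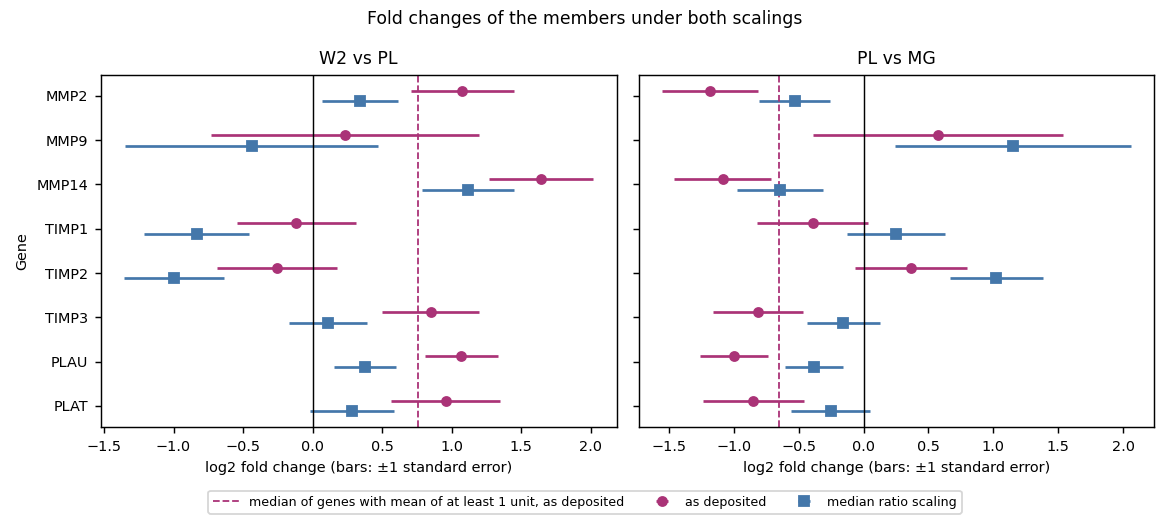
Log2 fold change (x axis, bars ±1 SE) of the 8 genes (y axis) in W2 vs PL (left) and PL vs MG (right), as deposited (circles) and after median ratio scaling (squares), with the median of all genes of at least 1 unit as a dashed line. In W2 vs PL, MMP14 is at 1.64 and 1.12 on the 2 scales, while TIMP2 is at -0.26 and -0.99.

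In PL vs MG, 2 of the 8 genes were called, MMP2 and PLAU, both lower in PL, against 25.2% of all genes and loci called and 23.0% called lower. In addition to these, MMP14 had samples that did not overlap, 3 of 8 against 39.2%. After median ratio scaling MMP2 (PL up to 56.1, MG from 51.9) and MMP14 (PL up to 1.95, MG from 1.85) overlapped. The median of the 8 was -0.83, beside -0.65 for all genes and loci with a mean of at least 1 unit, and none of the 8 was called after median ratio scaling (background 11.0%). The counts depended on single samples: without PL sample 3 the number called was 5 in PL vs MG and 5 in W2 vs PL, whereas without PL sample 2 it was 1 in PL vs MG, and without MG sample 3 or MG sample 6 it was 0. The share of all genes and loci called with these samples left out is not given here, so a general change in calls cannot be told apart. The PL samples are shared by these comparisons, and so their values are not independent. In PL vs LG MMP14 alone was called (background 14.7%), and 2 of 8 genes had samples that did not overlap (33.9%).

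The other comparisons gave no call among the 8 genes, and 5 of them gave few among all genes and loci. The background was 0.0115% in LG vs MG, 0.0154% in EL vs LG, 0.0269% in EL vs MG, 0.0115% in W2 vs MG, 0.0346% in W2 vs LG, 0.554% in W2 vs EL and 4.62% in PL vs EL. At an unadjusted p below 0.05 by limma, the numbers among the 8 were 0 in LG vs MG, 1 in EL vs LG, 0 in PL vs EL, 2 in EL vs MG, 0 in W2 vs MG, 0 in W2 vs LG and 3 in W2 vs EL. The share of all genes and loci at this unadjusted threshold is not given here, and the shares above are for adjusted p. These numbers are therefore not read as an excess. In EL vs MG, 5 of the 8 genes (MMP2, MMP14, TIMP1, PLAU and PLAT) had EL samples that all lay below the MG samples, against 29.9% of all genes and loci that did not overlap and 27.5% that were lower without overlap. Their log2 fold changes were between -0.70 and -1.06, and the median over genes of at least 1 unit was -0.37. After median ratio scaling PLAU overlapped in EL vs MG, up to 8.59 in EL and from 8.04 in MG. In W2 vs MG the 8 log2 fold changes ran from -0.51 to 0.80 with a median of 0.09, and MMP14 alone had samples that did not overlap (background 10.4%). After median ratio scaling MMP14 overlapped too, from 3.20 in W2 and up to 3.29 in MG. In the remaining comparisons the number of the 8 whose samples did not overlap was 1 in LG vs MG (background 14.4%), 2 in EL vs LG (18.1%), 0 in PL vs EL (18.8%), 1 in W2 vs LG (22.1%) and 2 in W2 vs EL (38.2%). The interval of the MMP2 difference in W2 vs MG was -0.90 to 0.69 and that of PLAU was -0.49 to 0.64.

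On the deposited scale, fibroblast, endothelial, adipocyte and lymphocyte marker sums were lower in PL than in MG and W2 without overlap. So were MMP2, MMP14 and PLAU. Against EL the fibroblast, endothelial and lymphocyte sums of PL overlapped. The median over 3521 genes was also lower in PL on this scale, by 0.73 in log2 against W2. The luminal sum was 771.3 to 1592 units in PL and 1150 to 1601 in MG. The myoepithelial sum was 773.2 to 1952 units in PL and 1400 to 1530 in MG, so both overlapped. The neutrophil and macrophage sums are given above, and no sum was put on the median ratio scale. The sum of the 6 fibroblast markers was 472.0 to 1087 units in PL, against 1541 to 2336 in MG and 1401 to 2632 in W2, with 1145 to 2155 in LG and 853.4 to 1301 in EL. Like MMP2, it was thus lower in PL than in MG and W2 without overlap. Within PL it was 472.0, 1087 and 617.0 units in samples 2, 3 and 6, the order in which MMP2, TIMP1, TIMP2, TIMP3 and PLAT also ran, but not MMP14 and PLAU. The sum of the 3 endothelial markers was 68.9 to 100.9 units in PL, against 106.8 to 158.5 in MG and 111.9 to 128.1 in W2. It was 97.1 to 166.4 units in LG and 90.1 to 124.4 in EL, both overlapping with PL. The 2 adipocyte markers in the table summed to 248.5 to 386.1 units in PL, against 441.9 to 729.5 in MG and 497.5 to 612.6 in W2. The 4 lymphocyte markers summed to 5.43 to 9.73 units in PL, against 18.1 to 19.3 in MG and 13.7 to 19.5 in W2. In EL they summed to 8.65 to 14.2 units. The part of these cell types in the changes of MMP2, MMP14 and PLAU was not tested.

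Ratios between 2 genes within a sample do not depend on the scaling apart from the pseudocount of 0.5, and 4 such ratios were formed after the levels had been seen. The log2 ratio of MMP2 to TIMP2 was 0.63 ± 0.26 (SD, n = 3) at mid-gestation and 0.41 ± 0.55 after weaning, against -0.92 ± 0.25 in PL. It was -0.08 ± 0.68 in LG and -0.11 ± 0.62 in EL. MMP2 was thus above TIMP2 in all 3 MG samples and below it in all 3 PL samples, and PL overlapped with neither MG nor W2. The difference of W2 from PL was 1.34 on the log2 scale and ran from 1.17 to 1.65 when single samples were left out. The exact permutation test gave p = 0.1 (two-sided), which is the smallest that 3 against 3 samples allow, so that no ratio could pass 0.05.

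The log2 ratio of MMP14 to TIMP2 was -5.37 ± 0.20 in PL, against -4.31 ± 0.35 in EL, -3.67 ± 0.72 in LG, -3.91 ± 0.17 in MG and -3.47 ± 0.21 in W2. Here PL lay apart from MG, EL and W2, and W2 lay above MG by 0.45 without overlap (exact permutation p = 0.1 in each). The difference of W2 from PL was 1.90, and it was 2.29 with a pseudocount of 0.1 and 1.61 with a pseudocount of 1, since MMP14 was near the pseudocount in PL sample 2. These 2 ratios share TIMP2 and so are not independent of each other.

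**Figure D3:**
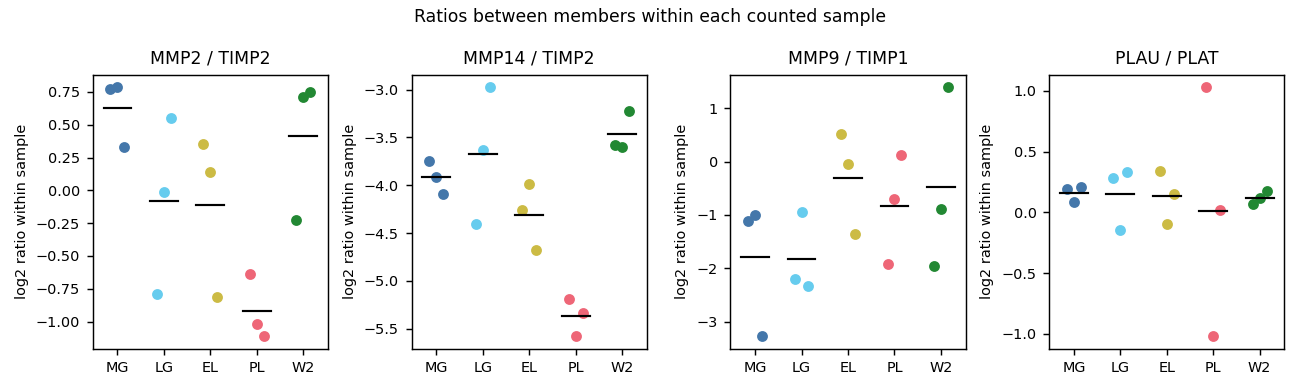
Log2 ratio within each counted sample (y axis) of MMP2 to TIMP2, MMP14 to TIMP2, MMP9 to TIMP1 and PLAU to PLAT by stage (x axis), with each point a sample and the line the stage mean. The PL points of MMP14 to TIMP2 lie between -5.58 and -5.18, below all points of the other stages.

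The other 2 ratios varied within stages more than between them. MMP9 to TIMP1 was -0.83 ± 1.03 in PL and -0.48 ± 1.71 in W2, a difference of 0.35 (exact permutation p = 0.9). It became -0.19 without PL sample 2 and -0.59 without W2 sample 6. PLAU to PLAT had stage means between 0.01 and 0.16 and a difference of 0.11 between W2 and PL (exact permutation p = 0.7). Its spread was 1.02 (SD) in PL, where single samples ran from -1.02 to 1.03, and at most 0.26 in the other stages. Of 24 ratio comparisons computed, 6 had samples that did not overlap, all with MMP2 or MMP14 over TIMP2.

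The other genes of these pathways were taken from a list of 63 proteases, regulators and matrix proteins, of which 51 had a row in the table. In W2 vs PL 14 of the 51 were called, all higher in W2 against 30.4% of all genes and loci called higher, and the median log2 fold change of all 51 was 0.95. Among 21 other metalloproteases 6 rose: the membrane-bound MMP16 (log2 fold change 1.71, limma, adjusted p = 0.00224) and MMP24 (1.06, adjusted p = 0.0102), MMP19 (1.77, adjusted p = 0.00251), ADAM12 (3.12, adjusted p = 0.00107), the procollagen protease ADAMTS2 (1.22, adjusted p = 0.0415) and the aggrecanase ADAMTS5 (1.32, adjusted p = 0.00491). ADAM12 had the largest change, from 1.41 ± 1.66 units in PL to 13.1 ± 4.28 in W2 (SD, n = 3). MMP7, matrilysin, was between 0.0 and 112.8 units within PL and was not called (1.32, SE 1.5, adjusted p = 0.528). After median ratio scaling MMP24 (limma, adjusted p = 0.161), ADAMTS2 (adjusted p = 0.335) and ADAMTS5 (adjusted p = 0.0937) were no longer called.

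Of the 6 metalloprotease regulators only RECK, a membrane-anchored inhibitor of MMP2, MMP9 and MMP14, was called higher as deposited (1.16, SE 0.33, limma, adjusted p = 0.0195). TIMP4 was at 5.14 ± 0.26 units in PL and 4.00 ± 0.96 in W2 and was not called as deposited (-0.35, adjusted p = 0.273). Of the 9 genes of the plasminogen system only PLGRKT, a plasminogen receptor, was called higher as deposited (0.94, limma, adjusted p = 0.0182). Of all genes and loci 30.4% were called higher. PLAUR, the receptor of urokinase, stood at 2.23 ± 0.94 units in PL and 4.12 ± 0.57 in W2 (0.81, SE 0.39, adjusted p = 0.128). PLG, which encodes plasminogen itself, had no row. After median ratio scaling RECK was at 0.53 (limma, adjusted p = 0.275) and PLGRKT at 0.21 (adjusted p = 0.678), and neither was called.

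Of 7 lysosomal proteases and their inhibitors, CST3 (cystatin C, an inhibitor of cathepsins) rose by 1.36 (adjusted p = 9e-04), and none of the 6 cathepsins was called by limma. Of 8 matrix substrates 5 were called as deposited, all higher, against 30.4% of all genes and loci called higher. They were COL4A1 (1.49, SE 0.12, limma, adjusted p = 3.9e-05), COL4A2 (1.42), LAMB1 (2.04), NID1 (1.68) and SPARC (1.13). LAMC1 (-1.26, SE 1.68, adjusted p = 0.595), HSPG2 (1.84, adjusted p = 0.0562) and FN1 (1.45, adjusted p = 0.334) were not called. After median ratio scaling COL4A1 and NID1 stayed called. COL4A2 (limma, adjusted p = 0.0654), LAMB1 (adjusted p = 0.168) and SPARC (adjusted p = 0.179) did not. COL4A1 went from 140.8 ± 20.2 units in PL to 393.4 ± 30.9 in W2 (SD, n = 3). On the deposited scale it was also the 1 gene of the 51 called in W2 vs EL (0.69, adjusted p = 0.0347). Under median ratio scaling, with a background of 0.400%, it was at 0.28 there (adjusted p = 0.434) and the 1 call was TIMP4, lower in W2 (-1.54, adjusted p = 0.0247). The median of the substrates was 1.47, beside 0.76 for all genes and loci of at least 1 unit.

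**Figure D4:**
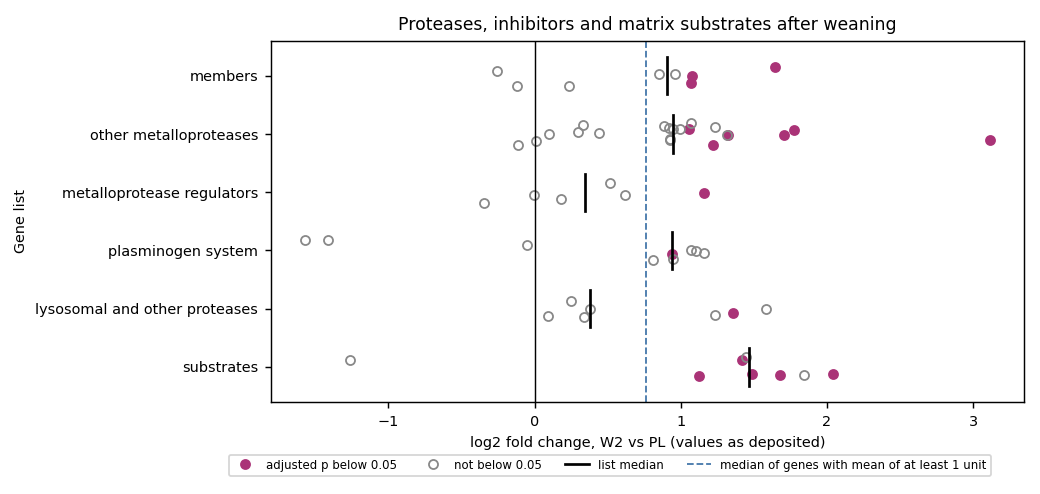
Log2 fold change in W2 vs PL on the deposited scale (x axis) of the 8 genes and of the 51 genes of 5 lists (y axis), with filled points for an adjusted p below 0.05, a line for each list's median and a dashed line for all genes of at least 1 unit. The 14 filled points of the 5 lists all lie above 0.

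Compared with MG, PL had 13 of the 51 genes called on the deposited scale, all lower, against 23.0% of all genes and loci. The median log2 fold change of all 51 was -0.77. The 13 called were MMP16, MMP19, MMP24, ADAM12, ADAMTS2, ADAMTS5, RECK, CST3, COL4A1, COL4A2, LAMB1, NID1 and SPARC, which are the genes called in W2 vs PL without PLGRKT. With median ratio scaling 8 were called, against 11.0%, of which MMP19, ADAM12, ADAMTS5, CST3, COL4A1 and NID1 were lower in PL and ADAM17 (0.70, limma, adjusted p = 0.0323) and ST14 (0.82, adjusted p = 0.0017) were higher. Compared with EL, PL had 4 called on the deposited scale, all lower, against 3.85%: MMP16 (-1.25, adjusted p = 0.0461), the cathepsin CTSZ (-0.83, adjusted p = 0.0360), COL4A1 (-0.80, adjusted p = 0.0046) and NID1 (-1.09, adjusted p = 0.0053), each by limma. With that scaling 3 were called, against 5.25%, which were NID1, lower in PL (-0.76, adjusted p = 0.0149), and ADAMTS1 (0.93, adjusted p = 0.0391) and ST14 (0.64, adjusted p = 0.0127), both higher. On the same scale 10 of the 51 were called in W2 vs PL, 6 higher and 4 lower, against 13.1%. The 6, all called on the deposited scale too, were MMP16, MMP19, ADAM12, CST3, COL4A1 and NID1. The 4 lower in W2 on that scale were TIMP4 (-1.02, limma, adjusted p = 0.0166), ST14 (matriptase, -0.79, adjusted p = 0.0019), ADAMTS1 (-0.83, adjusted p = 0.0355) and ADAM17 (-0.63, adjusted p = 0.0468), and on the deposited scale none of these 4 was called.

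The genes whose levels ran most like each of the 8 over the 15 samples were sought among 8154 reference genes with a mean of at least 5 units, by Pearson's r of log2 values. The values share the scaling of each sample, and r is given as a description. MMP2 ran most like OLFML2A (r = 0.96), KANK2 (0.96) and KLHL20 (0.96), and MMP14 most like NR2F2 (0.95), TMEM209 (0.95) and WWP2 (0.94). TIMP3 ran most like ADAMTS2 (0.97), SLC25A30 (0.94) and KIRREL (0.93), and TIMP2 most like PPT1 (0.91), CFD (0.89) and MYL9 (0.88). PLAU ran most like ARMC1 (0.97), ANAPC5 (0.96) and LRRC40 (0.96), and PLAT most like PPP4R1 (0.97), CHMP1B (0.97) and RASSF2 (0.96). MMP9 (USP15, 0.86) and TIMP1 (TBC1D16, 0.84) had the lowest values for their nearest gene.

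MMP3 lies in a row of metalloproteinase genes on chromosome 9, between 33214590 and 33616700, that holds MMP7, MMP20, MMP27, MMP8, MMP1, MMP3, MMP12 and MMP13. Of these 8 genes only MMP7 and MMP27 had a row, and the secreted collagenases and stromelysins among them were not analysed here. Since the authors kept transcripts of at least 0.5 FPKM in at least 1 stage, the levels of genes without a row are not known from this table.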

How the data were processed

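Per the labels and the study's methods, read quality was judged by FastQC, trimming was done by Trimmomatic and alignment to Sscrofa11.1 by HISAT2, and StringTie built and quantified the transcripts. The authors deposited values named FPKM, of which each counted sample holds between 997480 and 998888 in all, as TPM values would, so no scaling was added in the main setting. The study names a correction by RUVs, and whether the table includes it is not given in the sources used here. The table holds no reads per transcript, so the depth behind a value is unknown and errors come from the spread between sows alone.

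The 9 genes and all gene lists were chosen with earlier results of these data known. Values were summed per gene over its transcripts and analysed as log2(sum + 0.5). All 5 stages were fitted together with limma 3.58.1 in R 4.3.3 with trended variance, over 26012 genes and loci and 10 comparisons, with Benjamini-Hochberg adjustment in each. A gene was called at an adjusted p below 0.05. The study's count test could not be used without counts. The procedure was checked on simulated data with changes planted in W2 for some genes. The simulated stages had no general shift between them, so the check does not bear on the choice of scale. Ratios were compared by exact two-sided permutation in Python 3.11.15.

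In every stage, 3 samples differed pairwise by a median of at most 1.85% over transcripts of at least 10 units, against at least 19.6% for the others, and per transcript their mean differed from the others' mean by a median of at most 0.741%, though by more at low levels (MMP14 in EL, 0.839 units against 1.50). These were not counted. Of their values above 0, 99.4% to 99.5% had more than 6 decimals, against 0% in the counted samples. Same-numbered samples came from different sows, and their deviations had a mean correlation of 0.0081 over 19 pairs, beside -0.0022 over 71 pairs of other numbers, so the numbers do not pair them.

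From the list of 63 other genes, those called between successive stages or in PL vs MG were named, and any other named with its values was picked by role after its values were seen. For each of the 8 genes, the 3 genes with the highest Pearson's r were named. Alternatives were pseudocounts of 0.1 and 1, a filter on the mean, quantile normalization, median ratio scaling, rescaling without milk protein, PAEP, SAA3 and mitochondrial genes, no variance trend, the compared stages alone, the transcript with the highest mean, a replicate block, all 6 samples, and each sample left out.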

Additional observations from a re-analysis of the deposited data

How the results depend on the processing

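Counts in this section have no share of all genes and loci beside them unless a background is named. They thus cannot tell a change in the named genes from a general change in calls. The number of the 8 genes called in W2 vs PL (3 as reported) was 1 with quantile normalization, with median ratio scaling and with rescaling without milk protein, PAEP, SAA3 and mitochondrial genes, and 0 with the 2 stages fitted alone. The 2 calls in PL vs MG and the 1 call in PL vs LG went to 0 with each of these 4 settings, and the call in PL vs LG also with the transcript of the highest mean (0). The 2 calls of the F test went to 0 with the 3 scalings and with the transcript of the highest mean. Counting the near-identical samples makes the spread smaller by construction. With all 6 samples, the counts were 7 in the F test, 5 in W2 vs PL, PL vs MG, PL vs LG and W2 vs EL, 6 in EL vs MG, 3 in W2 vs LG and 2 in LG vs MG, EL vs LG and PL vs EL. With them as 1 further sample, the counts were 4 in the F test and W2 vs EL, 5 in W2 vs PL and PL vs MG, 2 in PL vs LG and 3 in EL vs MG. Median ratio scaling without PL sample 2, added after seeing the data, gave 1 in PL vs EL, W2 vs PL and PL vs MG and 0 in the F test and PL vs LG.

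With a replicate block, which the numbers do not warrant, the counts were 4 in W2 vs PL and 0 in the F test, PL vs MG and PL vs LG. Of the 8 transcripts, which hold the same values as the 8 genes, 2 (MMP14 and PLAU) were called in W2 vs PL when tested among all transcripts (background 7.13%). That number was 0 with the 3 scalings, the replicate block and the stages alone, 1 without the variance trend and 5 with the near-identical samples in either way. Of the 51 other genes, 36 were called in W2 vs PL with all 6 samples, 27 with the near-identical ones as 1 further sample and 8 with the stages alone.

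With 1 sample left out, the counts ran from 2 to 5 in W2 vs PL, 0 to 5 in PL vs MG, 0 to 2 in PL vs LG, the F test and W2 vs EL, 0 to 3 for the transcripts and 11 to 21 for the 51 genes. For W2 vs EL they were 1 without EL sample 3 and 2 without PL sample 2. The transcript count was 0 without PL sample 2, W2 sample 3 or W2 sample 6.

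Uncalled differences that turned in direction were MMP9 in W2 vs PL (-0.47 with quantile normalization, -0.44 with median ratio scaling, -0.17 with rescaling, -1.30 with median ratio scaling without PL sample 2), TIMP1 in PL vs MG (0.19, 0.25, 0.017 and 0.52 in the same order), and, in the last of these settings, TIMP3 (-0.0099) and PLAT (-0.11) in W2 vs PL and PLAT in PL vs MG (0.13). With 1 sample left out, MMP9 ran from -0.76 to 0.94 in W2 vs PL and from -0.19 to 1.57 in PL vs MG, TIMP1 from -0.57 to 0.31 and from -0.73 to 0.058, and TIMP2 in W2 vs PL from -0.79 to 0.047. The ratio of MMP9 to TIMP1 ran from -0.59 to 1.09 and that of PLAU to PLAT from -0.40 to 0.62. MMP14 in W2 vs PL was called by limma in 26 of 28 alternatives (adjusted p 2.6e-05 to 0.110), PLAU in 23 and MMP2 in 17. The 28 include the settings that count near-identical samples, whose spread is smaller by construction. They also include the transcript with the highest mean, which leaves the values of these genes unchanged. The alternatives share most samples, and so these numbers do not measure independent support. The cause of these changes was not tested. The table holds no read counts, so the counting error of genes of few units, such as MMP14, is unknown.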
